A study of Mus musculus with 3 samples.

Results

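The 38 genes described here make or regulate the copying of DNA, and were taken by symbol from a fixed list of DNA replication genes. All 38 were found among the 31053 genes measured in each of 3 mouse cortical cultures. Of these, 10 act in origin licensing and the helicase, 8 at the replication fork and its sliding clamp, 5 in nucleotide supply, 6 in chromatin assembly and 9 in the checkpoint, repair and regulation. MIM-treated astrocytes held 1710 CPM (UMI counts scaled to an equal library total) of these genes together, untreated astrocytes 238 CPM and neural stem cells 560.5 CPM. The difference between both astrocyte libraries was not shared evenly. Pclaf, which binds the sliding clamp, was 3044-fold higher after treatment, and Slbp, which binds histone mRNA, was 1.14-fold higher.

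Single cells of C57BL/6 cortex were fixed in methanol and profiled with 10x Genomics libraries, 1 library per group. MIM-treated astrocytes had been moved from serum-containing differentiation medium to MIM, a serum-free base of DMEM-F12 and Neurobasal with B27, N2, FGF2 at 20 ng/mL and up to 6 metabolites drawn from 4 amino acids (cysteine, glycine, methionine and threonine), S-adenosylmethionine and putrescine, and were collected by day 5. The labels give neither the metabolites nor the day used for this library. Untreated astrocytes were, per the protocol, a parallel culture that was washed and then stayed in DMEM-F12 with 10% serum, B27 and Glutamax. Neural stem cells (NSC) came from embryonic cortex at day 14.5 and grew as neurospheres in Neurobasal with B27, EGF and FGF2 at 20 ng/mL each, for at most 3 passages. The astrocyte labels also give embryonic day 14.5, whereas the protocol allows both a source at postnatal day 4 with a GLAST sort and differentiation from neurospheres. Serum, FGF2, base medium and metabolites changed together between both astrocyte groups and cannot be told apart, and culture and library cannot be told apart either.

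DNA is copied in S phase, after a ring of MCM proteins has been loaded at origins with the help of Cdc6 and later joined by Cdc45 and GINS to form the working helicase. The sliding clamp Pcna then tethers polymerases and ligase to DNA, while ribonucleotide reductase and thymidylate synthase supply the building blocks. Many of these genes are switched on together as cells pass from G1 into S phase by E2F transcription factors, and quiescent cells hold most of them low. Mature astrocytes in the brain rarely divide, whereas neural stem cells cycle.

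Depth differed between the libraries, which held 50915129 UMIs in MIM-treated astrocytes, 50598967 in untreated astrocytes and 14696853 in neural stem cells, over 14964, 9818 and 9145 kept cells in that order. Median depth was 3156, 5089 and 1379 UMIs per cell in the same order. Malat1, a nuclear RNA, took 9.44%, 13.7% and 26.9% of UMIs, and ribosomal protein genes took 8.39%, 2.87% and 11.6%, so both moved with the groups. Values with each left out of the totals are given where they change a call or a split. Between 25 and 43 cell barcodes were shared by each pair of libraries and 0 by all 3. As a check of the labels, 10 astrocyte markers summed to 1194 CPM in MIM-treated astrocytes, 2401 CPM in untreated astrocytes and 909 CPM in neural stem cells, and 10 neural progenitor markers to 10479, 2088 and 4662 CPM. These sums did not hold marker by marker. At a log2 ratio of 1 or more in size, 1 astrocyte marker was higher and 3 lower in MIM-treated than in untreated astrocytes. Against neural stem cells, 3 were higher and 2 lower in untreated astrocytes. Progenitor markers were 5 higher and 0 lower in MIM-treated than in untreated astrocytes, but 1 higher and 6 lower than in neural stem cells. An oligodendrocyte lineage list was at 628, 140 and 776 CPM in the same order, and a neuron list at 83.4, 69.2 and 298 CPM. Microglial and endothelial lists were at or below 1.38 CPM in every library, and a fibroblast and mural list was at 0.550, 45.5 and 3.40 CPM. With 1 library per group there is no replicate check on any value below, and every interval is an exact 95% interval that covers counting error only.

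Promoter sequence is shown for 3 genes because the letters bound by E2F factors were common near these genes and uneven among them. RefSeq windows on GRCm38.p6, which run from 250 bases before to 50 bases after a start, were found for 31 of the 38 genes, in 36 windows since some genes have several starts. Atad2, Exo1, Gins2, Gmnn, Mcm4, Rfc2 and Usp1 were not matched. Each window was searched on both strands for TTTGGCGC, TTTCGCGC and TTTCCCGC. At least 1 of these stood in the window of 12 of the 31 genes (38.7%), against 2.12% of 27025 genes in the table and 1 of 40 mitosis genes (2.5%). The matches lay in Cdc6, Clspn, Dtl, Hells, Lig1, Mcm3, Mcm5, Mcm6, Mcm7, Pclaf, Pola1 and Uhrf1, and in Mcm5 and Mcm6 neighbouring matches on opposite strands overlap. The CCAAT box, CCAAT on either strand, was in a window of 22 of the 31 genes (71.0%), against 41.1% of all genes and 30 of 40 mitosis genes (75%).

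The sequences below run 5′ to 3′ on the strand of the gene, and capitals mark the E2F-type letters. Pclaf, on the plus strand at chr9:65890073-65890372, has the largest difference between both astrocyte libraries and carries GCGGGAAA, which is TTTCCCGC on the other strand, from position -5 relative to the start. Mcm6, on the minus strand at chr1:128359656-128359955, has the most matches, at -110, -106 and -47. Slbp, on the minus strand at chr5:33652525-33652824, has none and kept the largest part of its level in non-dividing untreated astrocytes.
Pclaf: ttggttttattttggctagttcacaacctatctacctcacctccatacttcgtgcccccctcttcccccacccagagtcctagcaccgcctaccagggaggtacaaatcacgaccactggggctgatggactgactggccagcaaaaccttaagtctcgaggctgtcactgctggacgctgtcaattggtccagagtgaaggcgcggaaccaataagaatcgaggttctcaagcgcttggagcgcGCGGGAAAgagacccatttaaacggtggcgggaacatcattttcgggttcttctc
Mcm6: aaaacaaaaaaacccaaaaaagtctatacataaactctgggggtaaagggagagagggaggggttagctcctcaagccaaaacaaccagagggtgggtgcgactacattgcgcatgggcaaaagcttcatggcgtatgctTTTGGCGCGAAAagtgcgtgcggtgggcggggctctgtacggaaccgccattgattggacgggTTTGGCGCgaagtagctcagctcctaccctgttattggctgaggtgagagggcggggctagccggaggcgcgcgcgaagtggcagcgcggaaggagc
Slbp: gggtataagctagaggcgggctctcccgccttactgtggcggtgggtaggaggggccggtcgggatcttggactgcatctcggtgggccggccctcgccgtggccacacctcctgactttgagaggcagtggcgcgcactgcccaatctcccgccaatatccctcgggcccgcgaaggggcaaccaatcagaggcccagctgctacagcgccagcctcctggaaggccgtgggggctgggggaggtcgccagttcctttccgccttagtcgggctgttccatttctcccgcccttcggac

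The windows with and without E2F-type letters can be set beside the levels in untreated astrocytes. The 12 genes with a match had a median of 0.682 CPM there, between 0.0198 and 5.51 CPM, and 0 of them reached 10 CPM. The 19 genes without a match had a median of 3.16 CPM, between 0 and 51.4 CPM, and 4 of them, Dut, Nasp, Rpa2 and Slbp, reached 10 CPM. The 7 genes that had no window had a median of 10.7 CPM, and 4 of them, Mcm4, Gmnn, Rfc2 and Usp1, reached 10 CPM. Their letters are not known here, so the grouping is incomplete among the higher genes. Genes low in untreated astrocytes were found with and without a match, since Tk1, Rrm2 and E2f8 carried none of these letters in the window. This grouping is a description, was chosen after the levels had been seen, and says nothing on whether a factor binds.

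MIM-treated against untreated astrocytes asks how the set stood after the change of medium. The size rule for calling a gene was a log2 ratio of 1 or more in either direction, with 1 CPM added to both levels, together with a level of 50 CPM in 1 of the libraries. Of the 12 genes of the set at 50 CPM, 11 were higher and 0 lower in MIM-treated astrocytes, while 14.7% of all genes at that level were higher and 17.5% lower. In untreated astrocytes only Dut reached 50 CPM, so the other 11 passed through the MIM-treated library and could not be lower. Without the level threshold, 32 of 38 were higher and 0 lower, against 8.49% and 15.2% of 13876 genes with at least 20 UMIs. The median log2 ratio of the 38 genes was 2.33, and that of all 13876 genes was -0.19. In each of the 5 roles most genes were higher, but the size differed, with a median log2 ratio of 1.83 for licensing and helicase genes and 3.98 for nucleotide supply.

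Licensing and helicase genes summed to 275.7 CPM in MIM-treated astrocytes, 44.5 CPM in untreated astrocytes and 101 CPM in neural stem cells. Gmnn encodes geminin, which blocks a further round of licensing, and led the group with 112 CPM in MIM-treated astrocytes, 14.8 CPM in untreated astrocytes and 21.5 CPM in neural stem cells. Its ratio of MIM-treated over untreated astrocytes was 7.59 (7.03 to 8.20). Gins2, a subunit of the GINS complex, was at 73.9, 9.05 and 10.8 CPM in the same order of libraries. The untreated astrocytes and neural stem cells lay close together for Gins2, with overlapping intervals, and the MIM-treated library stood 8.16-fold above the untreated one (7.40 to 9.01).

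The MCM subunits did not move as a block, although the proteins work together in a ring. Mcm5 was at 4.20 CPM in MIM-treated astrocytes, 0.257 CPM in untreated astrocytes and 2.52 CPM in neural stem cells, and Mcm3 at 8.92, 0.593 and 2.79 CPM. Their ratios of MIM-treated over untreated astrocytes were 16.4 (9.37 to 31.2) and 15.0 (10.4 to 22.6). Mcm4 had 46.3 CPM in MIM-treated astrocytes, 10.7 CPM in untreated astrocytes and 14.2 CPM in neural stem cells, a ratio of 4.34 (3.95 to 4.78). Mcm7, whose exons hold Mir25 and Mir93 on the same strand, had 15.0, 5.51 and 35.5 CPM, a ratio of 2.72 (2.37 to 3.13), and was the MCM gene with the smallest one. Mcm7 was also the gene of the set that stood highest in neural stem cells relative to MIM-treated astrocytes. The loading factor Cdc6 had 94 UMIs in MIM-treated astrocytes, 5 in untreated astrocytes and 7 in neural stem cells. Cdc45, which activates the MCM ring, had 3.61, 1.48 and 1.91 CPM, and its log2 ratio of 0.89 did not reach the threshold.

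Fork and clamp genes held both the widest and some of the narrowest differences. Pclaf, the clamp-associated factor, had the highest level of the set in MIM-treated astrocytes and neural stem cells but not in untreated astrocytes, where Dut did, with 421 CPM (21442 UMIs) in MIM-treated astrocytes, 0.138 CPM (7 UMIs) in untreated astrocytes and 113 CPM (1667 UMIs) in neural stem cells. The interval of its 3044-fold difference between both astrocyte libraries ran from 1477 to 7573. Lig1, the ligase that joins newly made strands, had 67.0, 3.24 and 21.2 CPM in the same order, a ratio of 20.7 (17.7 to 24.3) for MIM-treated over untreated astrocytes. The clamp itself, Pcna, had 26.5, 5.81 and 18.7 CPM, a ratio of 4.56 (4.01 to 5.19), so its level changed far less than that of its partner Pclaf. The polymerase alpha and primase genes Pola1 and Prim1 had ratios of 6.46 and 5.75. Rfc2, part of the clamp loader, had 67.4 CPM in MIM-treated astrocytes, 25.7 CPM in untreated astrocytes and 30.0 CPM in neural stem cells, a ratio of 2.62 (2.46 to 2.80).

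Rpa2 and Fen1 were the fork genes closest between both astrocyte libraries. Rpa2, a subunit of the protein that coats single-stranded DNA, had 33.9 CPM in MIM-treated astrocytes, 24.3 CPM in untreated astrocytes and 8.24 CPM in neural stem cells. Fen1, the nuclease that removes the flap of an Okazaki fragment, had 9.23, 6.78 and 3.40 CPM. Ratios of MIM-treated over untreated astrocytes were 1.40 (1.30 to 1.50) for Rpa2 and 1.36 (1.18 to 1.57) for Fen1, both under the threshold. Both genes were lower in neural stem cells than in either astrocyte library.

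Nucleotide supply genes had the largest median difference of the roles. Tk1, the thymidine kinase of the salvage pathway, had 68.4 CPM (3483 UMIs) in MIM-treated astrocytes, 0.0988 CPM (5 UMIs) in untreated astrocytes and 5.11 CPM (75 UMIs) in neural stem cells. Its ratio of MIM-treated over untreated astrocytes was 692 (296 to 2134). Ribonucleotide reductase makes deoxynucleotides with a large subunit, Rrm1, and a small one, Rrm2. Rrm2 had 79.7, 1.40 and 13.4 CPM, a ratio of 56.8 (44.9 to 72.8) for MIM-treated over untreated astrocytes, and Rrm1 had 27.5, 4.01 and 14.0 CPM, a ratio of 6.86 (5.92 to 7.99). Thus both subunits were higher after treatment, and the ratio was larger for the small subunit, whose interval did not overlap that of the large one. Tyms, thymidylate synthase, had 94.1, 5.02 and 20.8 CPM, a ratio of 18.7 (16.5 to 21.3). Dut, which breaks down dUTP so that uracil stays out of DNA, behaved otherwise, with 96.7 CPM in MIM-treated astrocytes, 51.4 CPM in untreated astrocytes and 30.1 CPM in neural stem cells. Its ratio of 1.88 (1.79 to 1.97) did not reach the threshold, and Dut was the only gene at 50 CPM that was not called. Under TMM scaling its log2 ratio was 1.13 and did reach it.

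Chromatin genes ranged from nearly equal to undetected apart from 1 UMI. Uhrf1, which recognises hemimethylated DNA behind the fork, had 245 UMIs in MIM-treated astrocytes, 1 UMI in untreated astrocytes and 61 UMIs in neural stem cells. Hells, a chromatin remodeller of the same pathway of DNA methylation, had 15.9, 0.771 and 6.94 CPM, a ratio of 20.6 (14.9 to 29.1) for MIM-treated over untreated astrocytes. Chaf1b, a subunit of the factor that places histones behind the fork, had 4.42, 0.296 and 2.04 CPM. Nasp, a histone chaperone, had 69.4 CPM in MIM-treated astrocytes, 10.8 CPM in untreated astrocytes and 39.3 CPM in neural stem cells, a ratio of 6.45 (5.89 to 7.07), and Atad2 had a ratio of 6.89. Slbp differed least of all 38 genes, with 27.0, 23.6 and 17.6 CPM in the same order of libraries and a log2 ratio of 0.19.

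Among the checkpoint, repair and regulation genes, Ube2t, the conjugating enzyme of the Fanconi anaemia pathway, was highest, with 109 CPM in MIM-treated astrocytes, 3.38 CPM in untreated astrocytes and 12.9 CPM in neural stem cells. Its ratio of MIM-treated over untreated astrocytes was 32.3 (27.8 to 37.9). Usp1, the enzyme that takes off the ubiquitin placed by this pathway, had 60.3, 12.8 and 30.7 CPM, a ratio of 4.71 (4.33 to 5.14). Rad51ap1, a partner of the recombinase, had 31.2, 0.593 and 7.62 CPM, a ratio of 52.7 (36.8 to 78.3). Clspn, the adaptor of the replication checkpoint, had 27.9, 1.07 and 6.26 CPM, a ratio of 26.1 (19.9 to 34.9), and Dtl, which targets licensing factors for destruction, had 11.8, 0.415 and 5.45 CPM, a ratio of 28.5 (18.5 to 46.4). The helicase gene Blm had a ratio of 7.72 (6.00 to 10.1). Exo1, a nuclease, had 90 UMIs in MIM-treated astrocytes, 1 UMI in untreated astrocytes and 12 UMIs in neural stem cells. E2f8, a repressor of the E2F family, had 218, 0 and 47 UMIs, which against a floor of 3 UMIs in the untreated library is at least 72.2-fold higher in MIM-treated astrocytes. With the counting error of both libraries included, the interval of that ratio begins at 58.2. Ung, which cuts uracil out of DNA, had 3.36, 1.38 and 2.18 CPM and stayed under the threshold with a log2 ratio of 0.87.

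**Figure D1:**
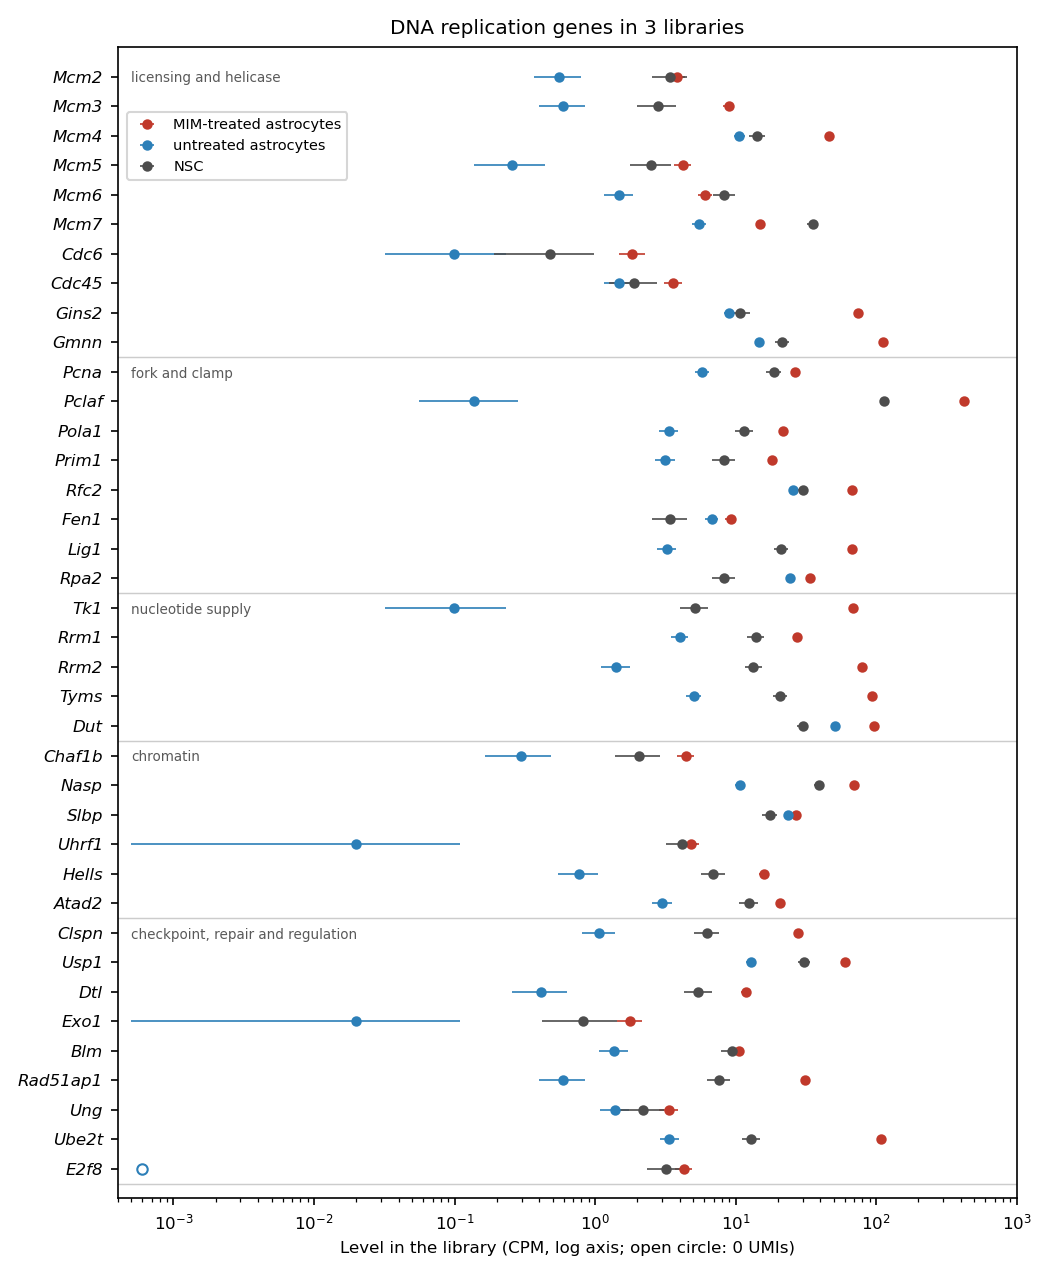
Level of each of the 38 genes in CPM on a log axis, grouped by role, in MIM-treated astrocytes (red), untreated astrocytes (blue) and neural stem cells (grey); bars are exact 95% Poisson intervals and the open circle marks 0 UMIs. Red points lie to the right of blue ones for every gene, by the most for Pclaf at 421 against 0.138 CPM and by the least for Slbp at 27.0 against 23.6 CPM.

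The make-up of the replication transcripts differed along with their amount. Dut, Rfc2, Rpa2 and Slbp together made 13.2% of the UMIs of the 38 genes in MIM-treated astrocytes, 52.4% in untreated astrocytes and 15.3% in neural stem cells. Pclaf alone made 24.6%, 0.0581% and 20.2% in the same order. These shares set genes beside each other in UMIs, which count transcript ends and carry no correction for how well each gene is captured.

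**Figure D2:**
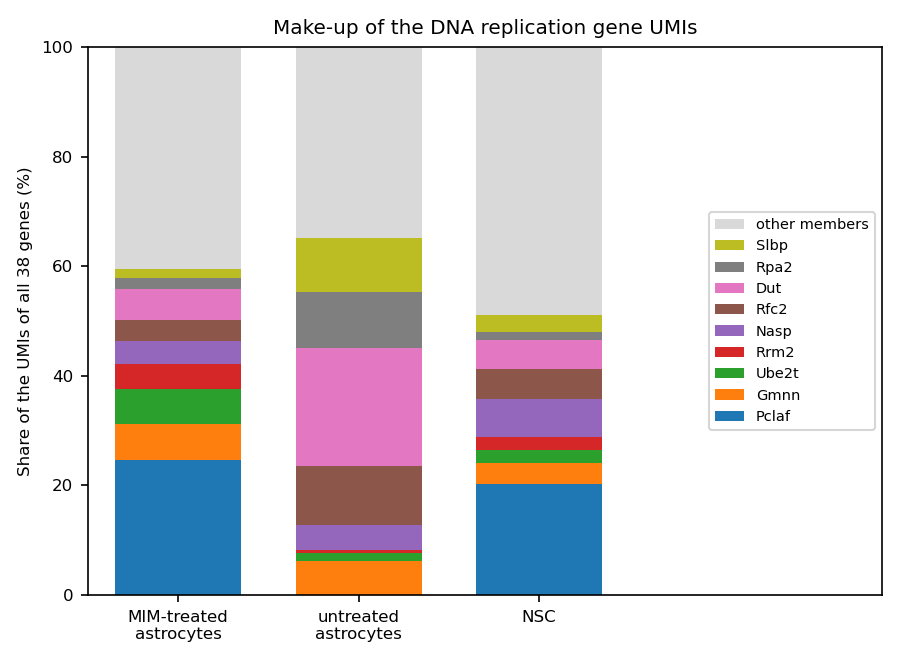
Share of the UMIs of the 38 genes that came from each of 9 named genes and from the others, as stacked bars in percent, for the 3 libraries. Pclaf fills 24.6% of the bar in MIM-treated astrocytes and 20.2% in neural stem cells but 0.0581% in untreated astrocytes, where Dut, Rfc2, Rpa2 and Slbp fill 52.4%.

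Untreated astrocytes against neural stem cells asks how the set stood in the differentiated culture. At 50 CPM only Pclaf and Dut could be compared. Pclaf was lower in untreated astrocytes and no gene was higher, while 22.9% of all genes at that level were lower and 31.2% higher. Without the level threshold, 26 of 36 genes with enough UMIs were lower and 1 was higher, against 22.6% and 19.9% of all genes. Pclaf was 820.2-fold lower in untreated astrocytes (397 to 2043), Tk1 51.7-fold lower (21.2 to 164) and Mcm7 6.43-fold lower (5.55 to 7.47). The gene called higher was Rpa2, at 2.94-fold (2.44 to 3.58). Fen1 at 1.99-fold (1.48 to 2.74), Dut at 1.71-fold (1.54 to 1.89) and Slbp at 1.35-fold (1.18 to 1.55) also had ratios of untreated astrocytes over neural stem cells above 1, under the threshold. Gins2, Rfc2, Mcm4, Gmnn and Cdc45 were within 1.46-fold of each other in these libraries.

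MIM-treated astrocytes against neural stem cells sets both whole cultures side by side, each a mixture of dividing and non-dividing cells. Non-dividing cells, as classed below, made 53.6% of MIM-treated astrocytes and 80.7% of neural stem cells, so the comparison does not give the level per cycling cell. Of 12 genes at 50 CPM, 10 were higher and 0 lower in MIM-treated astrocytes, against 20.3% and 16.2% of all genes. In neural stem cells only Pclaf reached 50 CPM, so the others passed through the MIM-treated library and could not be lower. Without the level threshold, 18 of 38 were higher and 1 was lower, against 9.29% and 20.5%. This split depended on the scaling, since it was 26 to 0 under TMM and 14 to 1 when Malat1 was left out of the totals, and the median over all genes itself moved by 0.31 and -0.26 on the log2 scale. The largest ratios of MIM-treated astrocytes over neural stem cells were 13.4 for Tk1 (10.7 to 17.1), 8.49 for Ube2t (7.34 to 9.87), 6.83 for Gins2 (5.82 to 8.05) and 5.94 for Rrm2 (5.15 to 6.89). Mcm7 was the gene called lower, with a ratio of 0.423 (0.378 to 0.473), and Mcm6 had a ratio of 0.733 (0.593 to 0.912). Both comparisons of astrocytes with neural stem cells use the same neural stem cell library.

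To separate the number of replicating cells from the level in each, every cell was thinned to 1000 UMIs. Cells with at least 3 UMIs of the set and at most 1 UMI of a 46-gene mitosis list were classed as S phase cells. For the level of a gene, the class was called from the other 37 genes, so that no gene set its own class. Cells that met this rule made 1.90% of MIM-treated astrocytes (266 of 13991, 1.68% to 2.14%). They made 0.158% of untreated astrocytes (15 of 9467, 0.0887% to 0.261%) and 0.858% of neural stem cells (66 of 7688, 0.665% to 1.09%). UMIs scattered over cells outside S phase can also meet the rule. How many of the 15 untreated cells met it in that way was not tested. Thinned to 2000 UMIs, which leaves only deeper cells, the shares were 2.73%, 1.32% and 4.33%, so the order of MIM-treated astrocytes and neural stem cells depended on depth. With no limit on mitosis genes, the shares at 1000 UMIs were 18.3%, 0.158% and 3.71%. Most MIM-treated cells with at least 3 UMIs of the set, 2299 of 2565, thus also carried at least 2 mitosis-list UMIs. Cells with at least 2 mitosis-list UMIs made 30.5%, 0.0423% and 8.23%, and non-dividing cells, with 0 UMIs of the mitosis list and of a list of replication-type histones, made 53.6%, 92.5% and 80.7%.

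The 15 untreated astrocytes that met the S phase rule held 62 UMIs of the set, over 15 of the 38 genes, and the other 23 genes were at 0. Dut gave 19 of these UMIs, Rpa2 7, Gmnn and Usp1 6 each and Rfc2 and Slbp 5 each. Of the 62 UMIs, 46 remained after thinning and put the cells in the class, so this make-up follows partly from the rule. Dut also had the highest level of the set in the whole untreated library, at 51.4 CPM. Whether the 15 cells were copying DNA was not tested. Among the genes at 0 were Pclaf, Tyms and Lig1, which with Gmnn and Dut held the most UMIs in S phase cells of MIM-treated astrocytes, where all 38 genes had a UMI over 266 cells. Pclaf had 0 UMIs among the 63434 UMIs of those cells, against 920 UMIs among 880632 in S phase cells of the MIM-treated library (1045 CPM, 978 to 1114) and 824 CPM in those of neural stem cells. The upper limit for Pclaf in the untreated cells was 58.2 CPM. Dut, in contrast, had 242 CPM in S phase cells of MIM-treated astrocytes and 232 CPM, from 4 UMIs, in the 5 untreated cells classed without it.

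Per S phase cell, Pclaf was followed in MIM-treated astrocytes by Gmnn at 260 CPM, Dut at 242 CPM, Tyms at 216 CPM, Lig1 at 209.7 CPM and Gins2 at 199.9 CPM. The lowest were Exo1 at 8.03 CPM and Cdc45 at 12.5 CPM. Of the 23 genes of the set at 50 CPM in S phase or non-dividing cells of MIM-treated astrocytes, 23 were higher in S phase cells and 0 lower, and of 24 in neural stem cells, 24 were higher and 0 lower. Since the class rests on the other genes of the set, this is a description, and among genes outside the set 5.5% were higher and 0.0815% lower in S phase cells of MIM-treated astrocytes, and 7.04% and 3.57% in those of neural stem cells. In non-dividing cells only Pclaf of the MIM-treated library reached 50 CPM. All other genes of the set passed through S phase cells and could not be lower there. The share of cells with a Pclaf UMI, at 1000 UMIs per cell, was 68.6% among MIM-treated cells with at least 3 other UMIs of the set, 4.96% among non-dividing MIM-treated cells and 0.0114% (1 of 8759) among non-dividing untreated cells. Before thinning, 34.4% of all MIM-treated astrocytes, 0.0713% of untreated astrocytes and 6.78% of neural stem cells had such a UMI, at median depths of 3156, 5089 and 1379 UMIs.

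The genes also differed in how their level in S phase cells compared with that in cells expressing the mitosis list. In MIM-treated astrocytes the ratio of S phase over mitosis-list cells had a median of 1.36 over the 38 genes. The interval lay above 1 for 19, below 1 for 4 and spanned 1 for 15. Its width depends on the UMIs of a gene, and intervals were not counted for genes outside the set. At 50 CPM, 2 of 23 genes, Hells and Dtl, were higher in S phase cells by the size rule and 1, Ube2t, was lower, against 0.0395% and 3.63% of genes outside the set. Mitosis-list cells were chosen without any gene of the set, while S phase cells were capped on the mitosis list. Of the 4261 mitosis-list cells, 2299 also held at least 3 UMIs of the set. The ratios thus do not set replicating cells against cells without replication transcripts, and a ratio near 1 does not place a gene in the cell cycle.

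The genes with the largest ratios toward S phase cells included the loading factor Cdc6, the uracil glycosylase Ung and the histone assembly gene Chaf1b. Cdc6 had 16.1 CPM in S phase cells and 3.33 CPM in mitosis-list cells, a ratio of 4.84 (2.69 to 8.31, 18 UMIs in S phase cells). Ung had 28.6 and 6.39 CPM, a ratio of 4.47 (2.92 to 6.67), and Chaf1b 28.4 and 9.44 CPM, a ratio of 3.01 (1.99 to 4.41). Hells followed at 2.42 (1.92 to 3.02) and Dtl at 2.40 (1.84 to 3.09). Each of the 6 MCM genes had a ratio above 1, from 1.59 for Mcm7 (1.14 to 2.18) to 2.38 for Mcm2 (1.41 to 3.83).

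At the other end stood Ube2t, with 99.6 CPM in S phase cells and 286 CPM in mitosis-list cells, a ratio of 0.348 (0.285 to 0.420). Rrm2 had 123 and 204 CPM, a ratio of 0.600 (0.502 to 0.713), Usp1 a ratio of 0.703 (0.569 to 0.860), Tk1 0.767 (0.646 to 0.903) and Rrm1 0.842 (0.633 to 1.10). Pclaf, Tyms, Nasp, Gmnn, Rad51ap1 and Pcna were within the counting error of equal levels, with Pclaf at 1045 CPM in S phase cells and 1027 CPM in mitosis-list cells. When the mitosis-list cells were restricted to those with at most 1 UMI of the other genes of the set, a choice made after the values were seen that lowers the set in them, Ube2t was still at 0.564 (0.459 to 0.688) and was the only gene with an interval below 1.

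In neural stem cells only 18 genes had at least 10 UMIs in the 66 S phase cells, so the order is less well resolved there. Mcm5 had a ratio of 6.38 (2.59 to 14.9), Hells of 3.96 (2.20 to 6.84), Mcm4 of 2.96 (1.68 to 4.99) and Dtl of 2.33 (1.05 to 4.69). Pclaf had a ratio of 1.02 (0.824 to 1.25), and Ube2t one of 0.739 (0.347 to 1.40), which includes 1. At 50 CPM, 5 of 24 genes were higher in S phase cells and 0 lower, against 3.21% and 6.1% of genes outside the set.

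**Figure D3:**
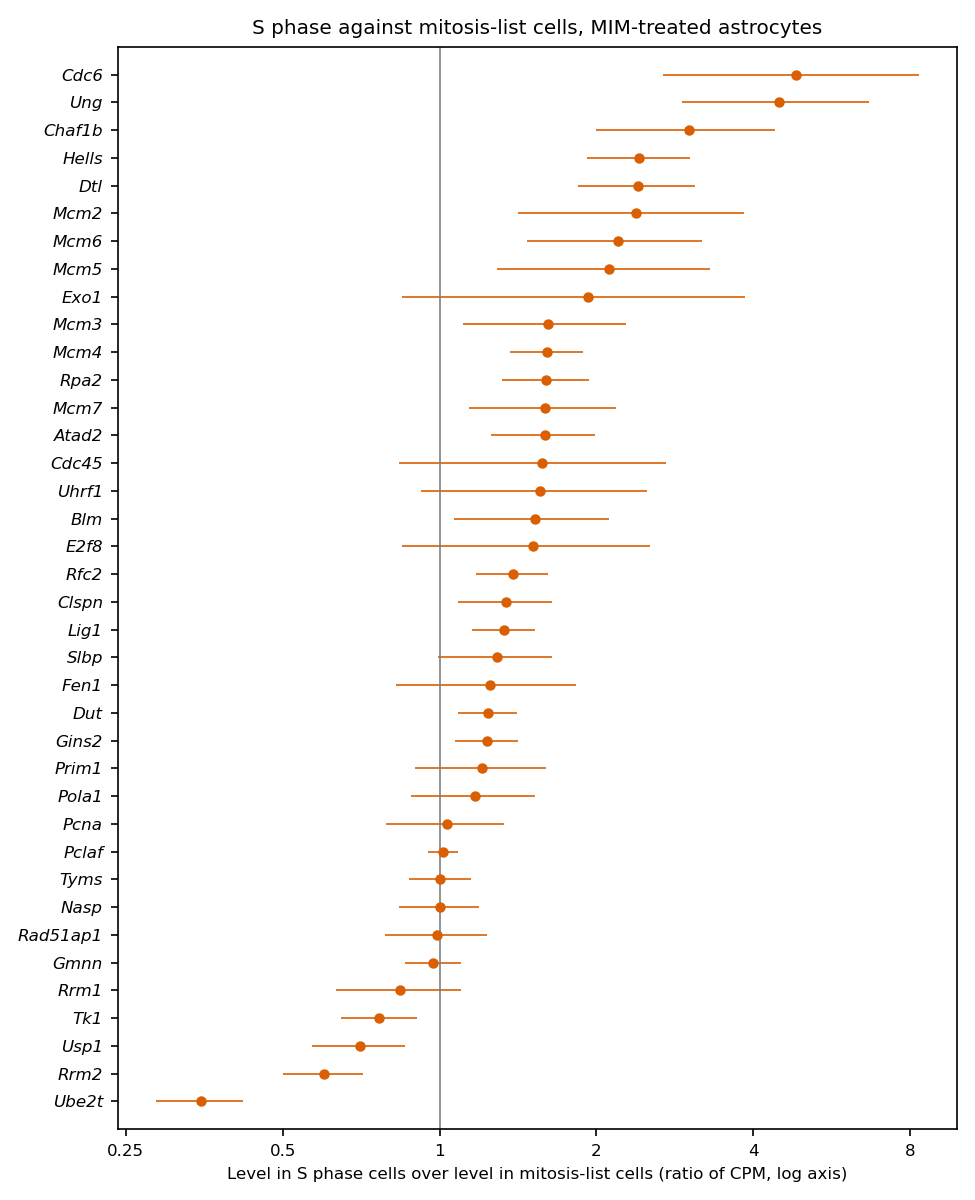
Ratio of the level in S phase cells over the level in mitosis-list cells of MIM-treated astrocytes for each gene, on a log axis, with exact 95% intervals and a line at 1. Cdc6 at 4.84 and Ung at 4.47 lie farthest to the right, and Ube2t at 0.348 and Rrm2 at 0.600 farthest to the left.

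Which genes stayed on in non-dividing cells was read from cells with no UMI of the mitosis or histone lists. A gene counted as on at 10 CPM or more and at least 50% of its level in S phase cells of the MIM-treated library. By this rule 0 of 38 genes were on in non-dividing MIM-treated astrocytes, 0 in non-dividing untreated astrocytes and 1 in non-dividing neural stem cells. That gene was Mcm7, with 28.8 CPM in non-dividing neural stem cells, 74.7% of the 38.6 CPM (27.9 to 52.0) of MIM-treated S phase cells. The call rests on that other library, since mitosis-list cells of the neural stem cell library itself had 73.3 CPM of Mcm7, of which non-dividing cells held 39.3%. Its 66 S phase cells, called with all genes of the set, had 155 CPM of Mcm7 from 24 UMIs. Neural stem cells with at least 3 UMIs of the other genes, at any mitosis count, stood at least 3.80-fold above non-dividing ones for every gene. Against these levels Mcm7 would not count as on. Over the set, the level in non-dividing cells was a median of 7.67% of the MIM-treated S phase level in MIM-treated astrocytes. The median was 3.88% of that same level in untreated astrocytes and 6.01% in neural stem cells.

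Below the rule for on, the genes fell along a wide range in non-dividing untreated astrocytes. Each percentage is of the level in S phase cells of the MIM-treated library, which is another culture. Slbp was at 37.99% of that S phase level (23.5 CPM), Fen1 at 26.0% (6.70 CPM), Rpa2 at 22.3% (24.6 CPM), Dut at 21.3% (51.4 CPM) and Rfc2 at 14.9% (25.3 CPM). Usp1 at 13.7% (12.7 CPM), Mcm7 at 13.7% (5.31 CPM), Cdc45 at 11.9% (1.48 CPM) and Pcna at 9.88% (5.80 CPM) came next. Rpa2 and Fen1 are known to act in DNA repair as well as in copying, and Dut keeps uracil out of DNA. Other genes of repair stood lower, among them Ung at 4.74%, Blm at 3.70%, Ube2t at 3.54% and Rad51ap1 at 0.732%. A link between role and level was not tested. At the bottom, 13 genes were under 1 CPM, among them Pclaf at 0.0144%, Tk1 at 0.0805%, Uhrf1 at 0.127%, Exo1 at 0.268% and Cdc6 at 0.533% of their S phase level, and E2f8 was at 0. In all, 8 genes reached 10 CPM in non-dividing untreated astrocytes, against 12 in non-dividing MIM-treated astrocytes and 10 in non-dividing neural stem cells.

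The order of the genes in untreated astrocytes was not that of dividing cells. Pclaf stood at 1045 CPM in S phase cells of MIM-treated astrocytes and at 0.150 CPM in non-dividing untreated cells, whereas Dut stood at 242 and 51.4 CPM. The mitosis list, at 3715 CPM in MIM-treated astrocytes and 1050 CPM in neural stem cells, summed to 39.3 CPM in untreated astrocytes, where 4 of 9467 cells were mitosis-list cells.

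The mitosis genes were also measured in non-dividing and mitosis-list cells, each with its class called from the other mitosis genes. The values of both sets are not alike, because non-dividing cells were chosen for lack of mitosis genes and without any replication gene. This choice lowers the mitosis genes in them, so their range does not show how much of a replication gene the class can hold. In MIM-treated astrocytes the level in non-dividing cells was 0.817% to 5.88% of that in mitosis-list cells for the 46 mitosis genes, with a median of 1.98%, and 3.00% to 37.3% for the 38 replication genes, with a median of 10.8%. Of these 38, 7 lay within the range of the mitosis genes, namely Pclaf (5.20%), Tk1 (3.45%), Rrm2 (3.00%), Clspn (4.18%), Exo1 (5.73%), Rad51ap1 (4.43%) and Ube2t (3.06%), and 31 lay above it. In neural stem cells the medians were 1.19% for mitosis genes and 11.6% for 31 replication genes. The non-dividing class can hold cells in early S phase, because it uses no gene of the set, and how many it holds was not tested.

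**Figure D4:**
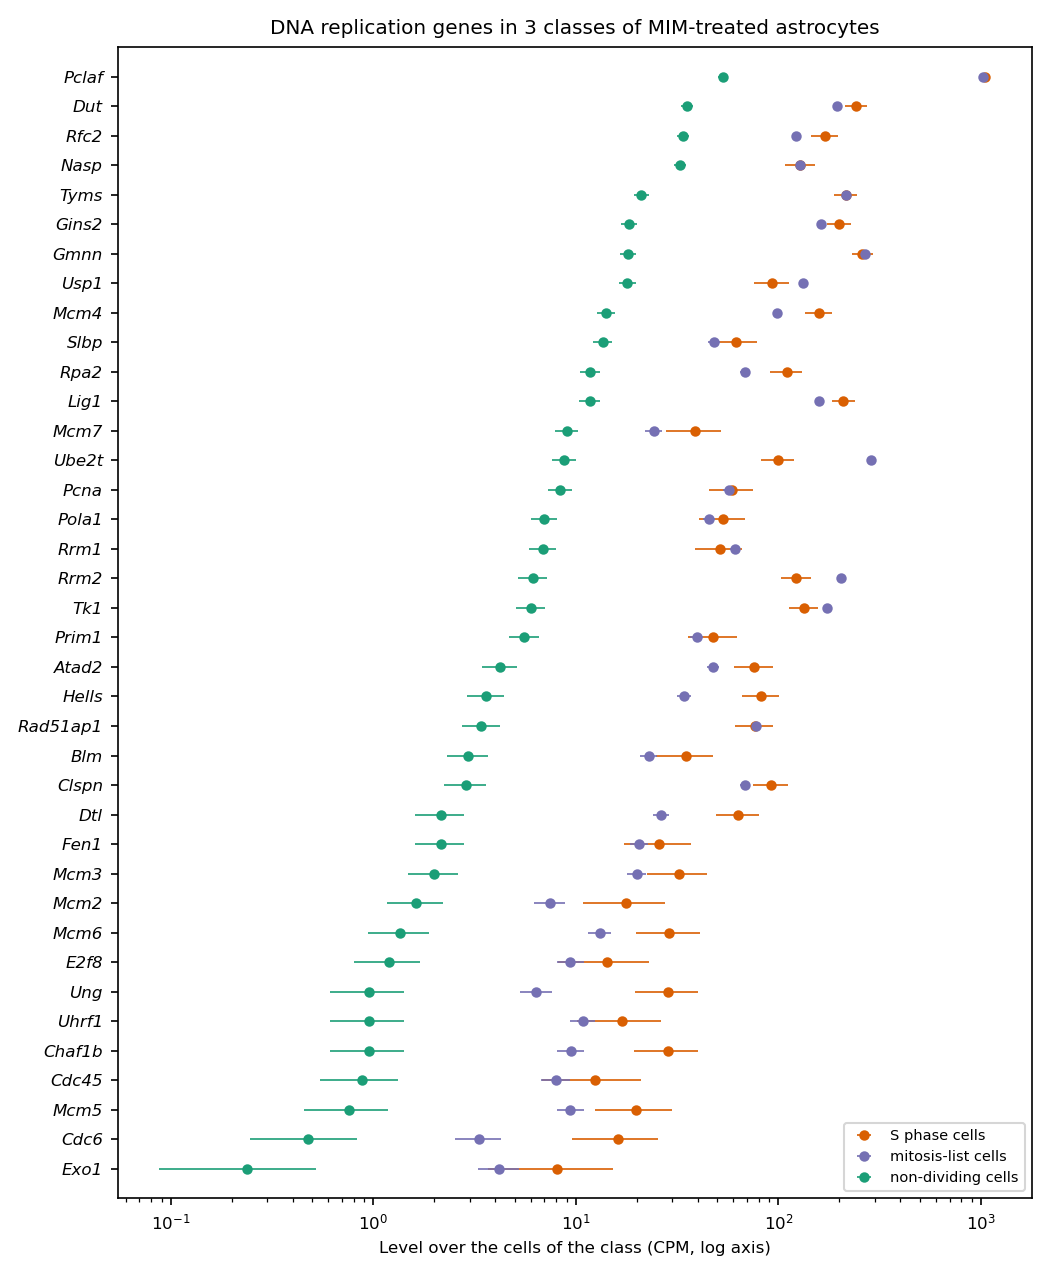
Level of each gene in S phase cells (orange), mitosis-list cells (purple) and non-dividing cells (green) of MIM-treated astrocytes, in CPM on a log axis with exact 95% Poisson intervals, ordered by the level in non-dividing cells. Green points lie to the left of both others for every gene, and Pclaf heads the order at 53.4 CPM in non-dividing and 1045 CPM in S phase cells.

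Non-dividing cells of both astrocyte libraries were also compared. The mitosis list was not level between them, although these cells had no mitosis UMI after thinning, with 16 of 32 measured genes higher and 0 lower in MIM-treated cells at a median log2 ratio of 1.01. The part of that signal in the values of the set was not tested. At 50 CPM, only Pclaf and Dut could be compared and Pclaf was higher in MIM-treated cells, while 11.3% of all genes at that level were higher and 17.7% lower. Without the level threshold, 11 of 36 genes were higher and 2 lower in non-dividing MIM-treated cells, against 6.24% and 16.4% of all genes. The median log2 ratio was 0.70 for the set and -0.26 for all genes, against 2.33 and -0.19 over whole libraries. Pclaf had 53.4 CPM in non-dividing MIM-treated astrocytes, 0.150 CPM in untreated ones and 19.0 CPM in neural stem cells, a ratio of 355 (172 to 885) between the astrocytes. Tk1 had 6.00, 0.107 and 1.05 CPM, a ratio of 55.9 (23.4 to 175), and both genes are among the 7 within the range of the mitosis genes. Rad51ap1, Dtl, Hells, Rrm2, Tyms, Lig1, Nasp and Ube2t had ratios between 2.48 and 6.12. When non-dividing cells also had to lack every other gene of the set, 5 genes were higher.

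Fen1 and Rpa2 were lower in the non-dividing MIM-treated cells. Fen1 had 2.15 CPM there, 6.70 CPM in untreated cells and 1.63 CPM in neural stem cells, and its ratio of MIM-treated over untreated cells was 0.320 (0.235 to 0.429). Rpa2 had 11.7, 24.6 and 4.60 CPM, a ratio of 0.478 (0.419 to 0.543), with a log2 ratio of -1.01 that was -0.75 under TMM scaling and thus no longer called. Slbp, at 13.6, 23.5 and 16.0 CPM, and Dut, at 35.4, 51.4 and 22.6 CPM, had ratios of 0.577 (0.509 to 0.652) and 0.689 (0.637 to 0.744), under the threshold for lower. Over whole libraries these 4 genes had ratios of MIM-treated over untreated astrocytes between 1.14 and 1.88, so their direction differed between whole libraries and non-dividing cells. Under the 3 other scalings the ratios of these 4 genes stayed above 1 in whole libraries and below 1 in non-dividing cells, with non-dividing log2 ratios of -1.36 to -1.09 for Fen1 and -0.56 to -0.26 for Dut. In all, 7 of 38 genes changed direction in this way, and how many of all genes did so was not counted. Cdc45 had a ratio of 2.44 (1.85 to 3.23) in whole libraries and 0.590 (0.348 to 0.965) in non-dividing cells, where it had 22 UMIs in MIM-treated and 69 in untreated cells. Ung had 2.43 and 0.705 (0.421 to 1.14), and Mcm6 4.11 and 0.953 (0.611 to 1.46), both with an interval that includes 1 in non-dividing cells. Non-dividing cells of both libraries also differed in other ways, with summed astrocyte markers at 1401 CPM in MIM-treated and 2409 CPM in untreated cells, summed progenitor markers at 10801 and 2093 CPM, and Malat1 at 11.5% and 13.7% of UMIs. Of 10 astrocyte markers, 2 were higher and 2 lower in the MIM-treated cells, and of 10 progenitor markers 5 were higher and 0 lower. The part of these differences in the result was not tested.

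Against non-dividing neural stem cells, 7 of 36 genes were higher and 2 lower in non-dividing MIM-treated astrocytes, while 8.86% and 23.3% of all genes were. The 2 lower genes were Mcm6 and Mcm7, with Mcm7 at 9.02 CPM in MIM-treated cells and 28.8 CPM in neural stem cells. Of the 38 genes, 15 had another direction here than in whole libraries. For 4 of them, Mcm5, Pcna, Atad2 and Usp1, both intervals lay off 1. How many of all genes changed direction was not counted, here or in the comparison that follows. Pcna had a ratio of 1.42 (1.25 to 1.62) in whole libraries and 0.632 (0.507 to 0.789) in non-dividing cells. In non-dividing untreated astrocytes against non-dividing neural stem cells, 3 of 33 genes were higher and 11 lower, against 20.9% and 21.4% of all genes. The 3 higher genes were Fen1, Rpa2 and Dut. Direction differed from whole libraries for 6 genes, and Gmnn was the gene whose intervals both lay off 1, with 0.686 (0.601 to 0.785) in whole libraries and 1.76 (1.41 to 2.22) in non-dividing cells.

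**Figure D5:**
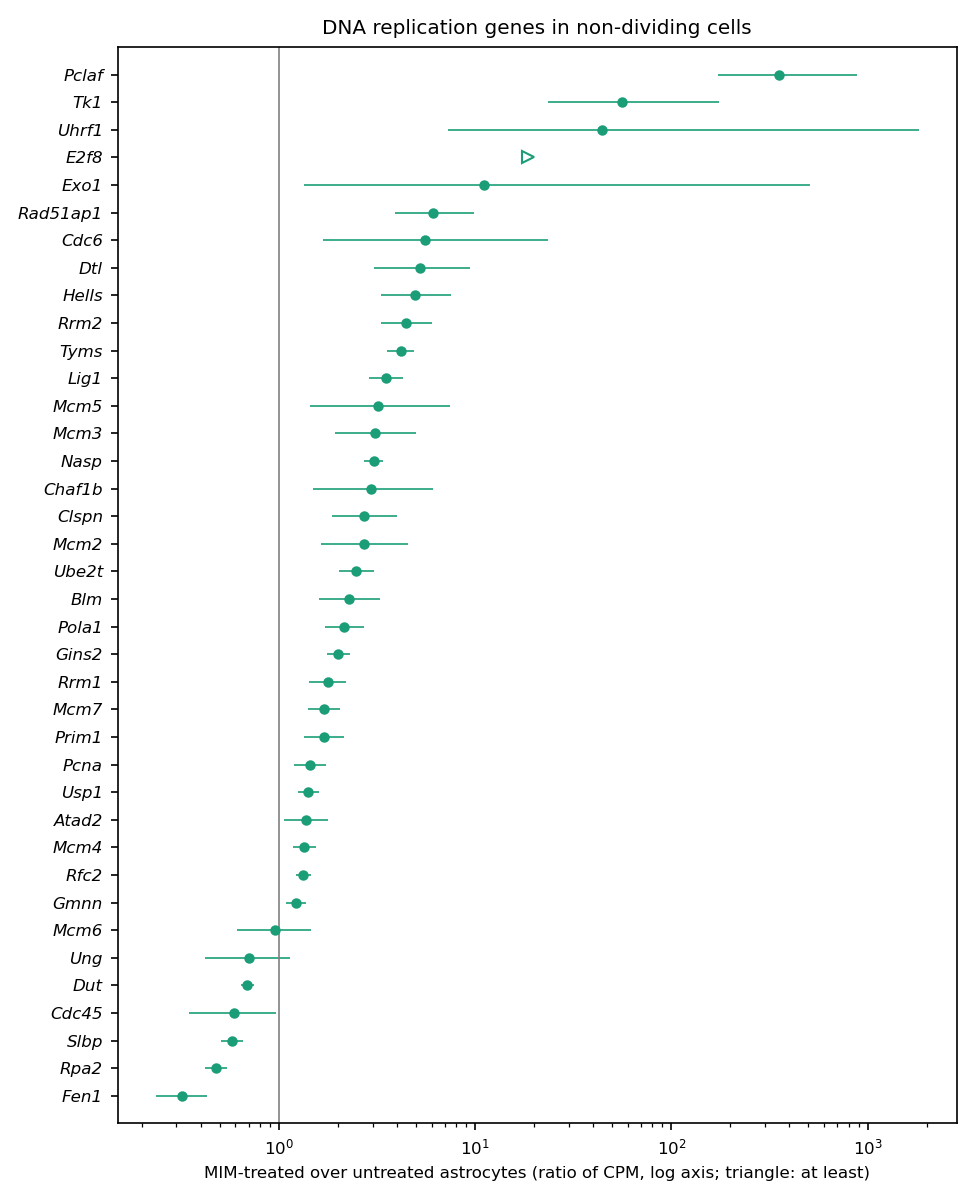
Ratio of MIM-treated over untreated astrocytes within non-dividing cells for each gene, on a log axis, with exact 95% intervals and a line at 1; the triangle for E2f8 is a lower bound. Pclaf at 355 and Tk1 at 55.9 are at the top, and Fen1 at 0.320, Rpa2 at 0.478, Slbp at 0.577, Cdc45 at 0.590 and Dut at 0.689 lie left of the line with intervals below 1. Ung at 0.705 and Mcm6 at 0.953 also lie left, with intervals that cross it.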

How the data were processed

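The deposited matrices hold UMI counts per gene and cell barcode. Per the labels' protocols, reads were aligned by the authors to the pre-built mm10 reference of 10x Genomics in Cell Ranger (version 3.0.2), and the submitters' processing notes also list Seurat (version 3.1.1). Every barcode had at least 500 UMIs. Cells with at least 200 genes and at most 20% mitochondrial UMIs were kept, which removed 7 to 13 per library. No doublet caller was run, and leaving out the 8% of cells with the most UMIs was an alternative.

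Counts were summed per library or class and scaled to CPM, with exact Poisson, binomial and ratio intervals at 95%. No p-value was computed, because each group is 1 library. Thinning was without replacement with seed 1 and left out 973 MIM-treated astrocytes, 351 untreated astrocytes and 1457 neural stem cells with fewer than 1000 UMIs. A gene entered counts without a level threshold with 20 UMIs over both libraries. Values in full were given for genes on in non-dividing cells, the 10 largest and 5 smallest log2 ratios of MIM-treated over untreated astrocytes and the 5 largest ratios of S phase to mitosis-list cells in each direction. Of other lists, up to 4 genes with the largest log2 ratios among those at 10 CPM were eligible. Further genes were chosen after their values were seen. The genes, lists and rules were chosen with earlier results of these data known. The size rule was tested on simulated counts. Promoters and their coordinates are from RefSeq on GRCm38.p6. TMM factors came from edgeR 4.0.16 under R 4.3.3, figures from matplotlib 3.10.9, intervals from scipy 1.17.1, and the remaining steps were run in pandas 2.3.3 and numpy 2.4.6 on Python 3.11.15.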

Additional observations from a re-analysis of the deposited data

How the results depend on the processing

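No paired analysis was possible because each group is 1 library, and for the same reason no replicate could be left out. In MIM-treated over untreated astrocytes, 18 genes of the set were higher at a threshold of 20 CPM, 32 with no level threshold and 1 in non-dividing cells only. In untreated astrocytes over neural stem cells, 2 were lower without Malat1 in the totals, 6 lower and 1 higher at 20 CPM, 26 lower and 1 higher with no level threshold, 0 lower and 1 higher in non-dividing cells only, and 1 higher without the 8% of cells with the most UMIs. In MIM-treated astrocytes over neural stem cells, 1 was lower at 20 CPM, 18 were higher and 1 lower with no level threshold, and 1 was higher in non-dividing cells only. TMM, totals that omit ribosomal protein and mitochondrial genes, cells of equal weight, a pseudocount of 10 CPM and no cell filter kept these counts within a factor of 1.5. The median log2 ratio of all genes moved by 0.18 under TMM in MIM-treated over untreated astrocytes, and in untreated astrocytes over neural stem cells by 0.13 under TMM, -0.11 without mitochondrial and ribosomal protein genes and -0.21 without Malat1. In non-dividing cells only, 7, 6 and 15 of 38 genes changed sign in MIM-treated over untreated astrocytes, untreated astrocytes over neural stem cells and MIM-treated astrocytes over neural stem cells. The share of all genes that changed sign was not counted. Among genes past the threshold in whole libraries, the log2 ratio turned to -0.040 for Mcm6 in MIM-treated over untreated astrocytes, to 0.30 for Ube2t in untreated astrocytes over neural stem cells, and to -0.19 for Prim1 and -0.065 for Hells in MIM-treated astrocytes over neural stem cells. The share of cells classed as S phase in MIM-treated astrocytes, untreated astrocytes and neural stem cells was 2.73%, 1.32% and 4.33% at 2000 UMIs. It was 5.47%, 2.43% and 3.75% with at least 2 UMIs of the set and 1.19%, 0.0106% and 0.468% with at least 4. It was 2.98%, 3.26% and 3.17% by the histone list, which did not separate the libraries. It was 18.3% in MIM-treated astrocytes and 3.71% in neural stem cells with no limit on the mitosis list, and 1.52% and 0.637% without Pclaf. Genes on in non-dividing cells numbered 10, 6 and 7 in that order of libraries by the histone list and 1, 1 and 2 at 25% of the S phase level. At 2000 UMIs they were 1 in untreated astrocytes and 3 in neural stem cells, and with at least 2 UMIs of the set 1 in untreated astrocytes. Within non-dividing cells of MIM-treated over untreated astrocytes, 1 gene was lower under TMM, without mitochondrial and ribosomal protein genes, by the mitosis list alone and with another seed, and 5 were higher when the other genes of the set were also at 0. For untreated astrocytes over neural stem cells, 18 were lower without Malat1 and 6 with the other genes at 0, and for MIM-treated astrocytes over neural stem cells 3 were higher at 2000 UMIs. The cause of these shifts was not tested. Chosen after seeing the data were the comparisons in non-dividing cells only, the S phase rule with no limit on the mitosis list, the set without Pclaf, the scalings within non-dividing cells and the restricted mitosis-list cells. Counting error was widest where a gene had few UMIs, as for Cdc6, Uhrf1, Exo1 and E2f8 in untreated astrocytes.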

Other observations

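Other genes of the same processes were read from lists of genes outside the set, without a level threshold. Of 45 other replication genes, 24 were higher and 2 lower in MIM-treated than in untreated astrocytes, with a median log2 ratio of 1.10, against 2.33 for the set and -0.19 for all genes, of which 8.49% were higher and 15.2% lower. Dbf4, the activator of the kinase that fires origins, had 30.6 CPM in MIM-treated astrocytes, 2.98 CPM in untreated astrocytes and 19.1 CPM in neural stem cells. The clamp loader genes Rfc4 and Rfc3 had 84.4 and 76.3 CPM in MIM-treated astrocytes, 13.1 and 15.1 CPM in untreated astrocytes and 32.8 and 50.4 CPM in neural stem cells. Both thus differed more between the astrocyte libraries, at 6.42-fold and 5.05-fold, than Rfc2 of the same complex, at 2.62-fold, with intervals that did not overlap. Of 13 measured nucleotide supply genes outside the set, 6 were higher and 2 lower. Dctpp1, which breaks down deoxynucleotides, had 217, 17.5 and 104 CPM in the same order of libraries. Ctps, which makes CTP, was lower in MIM-treated than in untreated astrocytes, with 6.88, 19.7 and 6.40 CPM.

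Of 23 regulators of the passage from G1 to S phase, 8 were higher and 0 lower in MIM-treated astrocytes, with a median log2 ratio of 0.58. Cyclin A2 (Ccna2) had 53.7 CPM in MIM-treated astrocytes, 1.07 CPM in untreated astrocytes and 22.7 CPM in neural stem cells, and Ccne1, cyclin E1, had 11.4, 1.74 and 3.06 CPM. Of 25 recombination and crosslink repair genes, 11 were higher and 1, Fance, lower, at 3.32, 13.7 and 7.83 CPM. Of the mitosis list, all 46 genes were higher. Replication-type histones, whose main transcripts lack the poly(A) tail that 10x libraries prime on, summed to 43.8, 34.0 and 47.6 CPM, and of 22 measured 1 was higher and 1 lower.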
